A study of Mus musculus with 7 samples.

Results

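Tenocytes are the fibroblasts of tendon, and 6 genes that mark them were followed here in libraries of endothelial cells from mouse skeletal muscle: Thbs4, Comp, Fmod, Tnmd, Scx and Mkx. They were chosen by gene symbol, and each of the 6 symbols was found among the 30899 genes of the tables. Endothelial cells were isolated with beads from muscle of wild-type mice (3 libraries) and of mice labelled as endothelial GLUT1 knockout (4 libraries), and bulk RNA was sequenced without any further treatment. The sources used here name neither the deleting driver nor the strain, age or sex, and although each library carries a number of its own, nothing says that the numbers are those of animals. All 7 share 1 date-like code, so the labels show no batch. P-values therefore measure only the spread between these libraries.

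Tendon is built of parallel collagen fibrils laid down by tenocytes. Scx (scleraxis, a basic helix-loop-helix factor) and Mkx (Mohawk, a homeobox factor) are transcription factors that drive tendon differentiation and matrix synthesis. Tnmd (tenomodulin) is a transmembrane glycoprotein used as a marker of mature tenocytes. Fmod (fibromodulin) is a small leucine-rich proteoglycan that binds collagen and shapes fibril assembly, while Thbs4 and Comp are secreted thrombospondins that form pentamers and bind matrix proteins. In muscle these genes are used as markers of the tendon and the myotendinous junction, and not of endothelial cells. Which cells of these libraries expressed them was not tested. In bulk samples, a different number of expressing cells and a different amount of RNA per cell cannot be told apart.

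The 250 bases before the annotated start of Thbs4 and Tnmd, the members that passed the test below, are shown with those of Fmod, which did not pass. They come from RefSeq, build GRCm38.p6, which is older than the GRCm39 build named in the submitters' processing notes. Windows of 3 of the 6 members are shown, and Comp, Scx and Mkx are left out. Capitals mark the E-box CANNTG, the core bound by basic helix-loop-helix factors such as scleraxis, which reads the same on either strand.
Thbs4, minus strand, chr13:92794819-92795068: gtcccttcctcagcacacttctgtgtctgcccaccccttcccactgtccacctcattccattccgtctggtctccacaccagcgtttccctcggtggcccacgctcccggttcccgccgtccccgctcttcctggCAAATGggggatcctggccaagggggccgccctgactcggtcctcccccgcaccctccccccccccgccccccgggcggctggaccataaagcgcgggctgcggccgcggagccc
Tnmd, plus strand, chrX:133850758-133851007: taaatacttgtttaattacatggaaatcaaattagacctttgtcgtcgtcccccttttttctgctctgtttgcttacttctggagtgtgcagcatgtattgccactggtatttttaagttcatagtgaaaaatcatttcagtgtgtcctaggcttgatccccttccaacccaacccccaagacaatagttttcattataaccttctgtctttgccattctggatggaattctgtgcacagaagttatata
Fmod, plus strand, chr1:134037004-134037253: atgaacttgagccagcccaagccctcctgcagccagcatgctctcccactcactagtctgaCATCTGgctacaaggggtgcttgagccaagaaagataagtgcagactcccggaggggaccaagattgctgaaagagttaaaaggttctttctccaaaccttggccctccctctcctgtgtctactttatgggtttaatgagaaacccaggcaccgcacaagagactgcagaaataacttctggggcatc
The Thbs4 window held 1 E-box, CAAATG, and the Fmod window 1, CATCTG. The letters CANNTG do not occur in the Tnmd window. The E-box occurred in 66.2% of 32851 windows of the same length, so it is a common feature. The windows differed in base composition, with a GC content of 70.8% for Thbs4, 51.2% for Fmod and 38.4% for Tnmd. The Thbs4 window also held 3 matches to the GC box GGGCGG on either strand, found in 32.7% of windows, and the TATA box TATAAA, found on either strand in 12.4% of windows, was in none of the 3.

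The values are the authors' normalised counts, with library sums of 11855652 to 13441728 for wild type against 14592369 to 15731074 for the knockout label. The reads behind these totals, estimated from the spacing of low values, were 14736938 to 18020318 and 11260179 to 14156874. These are rough estimates, since only 24.4% to 48.6% of low values lay near whole multiples of that spacing. Slc2a1, which encodes GLUT1, averaged 1127 ± 123 (SD, n = 3) among wild-type libraries against 1074.5 ± 263 (SD, n = 4) among the others. Its log2 difference was -0.09 (SE 0.18, 95% interval -0.47 to 0.28, limma adjusted p = 0.738). Which exons were deleted is not stated, and a gene total can hold reads from exons that remain. On equal totals the difference was -0.32 (limma adjusted p = 0.220) and with quantile normalization -0.22. Loss of the target did not pass the test in this RNA, so the second group is called knockout-labelled, and directions rest on the labels. Signs of RNA content or read depth moved with the groups: genes at 0 numbered 2794, 5872 and 6551 in wild-type libraries 1 to 3 against 7301 to 9306 under the knockout label, and the nuclear RNA Malat1 took 2.01%, 1.04% and 0.904% of the total against 0.22% to 0.471%. The groups did not overlap in either, nor in the estimated reads, and genes at 0 also depend on read depth. Wild-type library 1 lay farthest out in both and had the most estimated reads. The part of this in the tenocyte gene differences was not tested. Of 16931 genes with a mean of at least 10, 1949 (11.5%) passed an adjusted p of 0.05, against 43 without wild-type library 1.

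Of the 6 tenocyte genes, Thbs4 and Tnmd rose in the knockout-labelled libraries and 0 fell. That is 2 of 6 called higher, where 5.98% of all tested genes were called higher and 5.53% lower. The same members were the 2 of 6 whose groups did not overlap, which held for 14.7% of tested genes with the knockout label higher and for 14.1% with it lower. The 4 other members, Comp, Fmod, Scx and Mkx, did not pass the test. All 6 had estimates above 0, as did 51.8% of tested genes, though that of Comp was below 0 on equal totals and with quantile normalization. Their median log2 fold change was 0.77 against 0.02 over all tested genes. Each of the 6 was above the minimum mean of 10. These counts depend on single libraries. The number of members called was 0 when wild-type library 1 or knockout-labelled library 1 was left out, and also 0 on equal library totals, a scaling that took the all-gene median from 0.02 to -0.21.

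**Figure D1:**
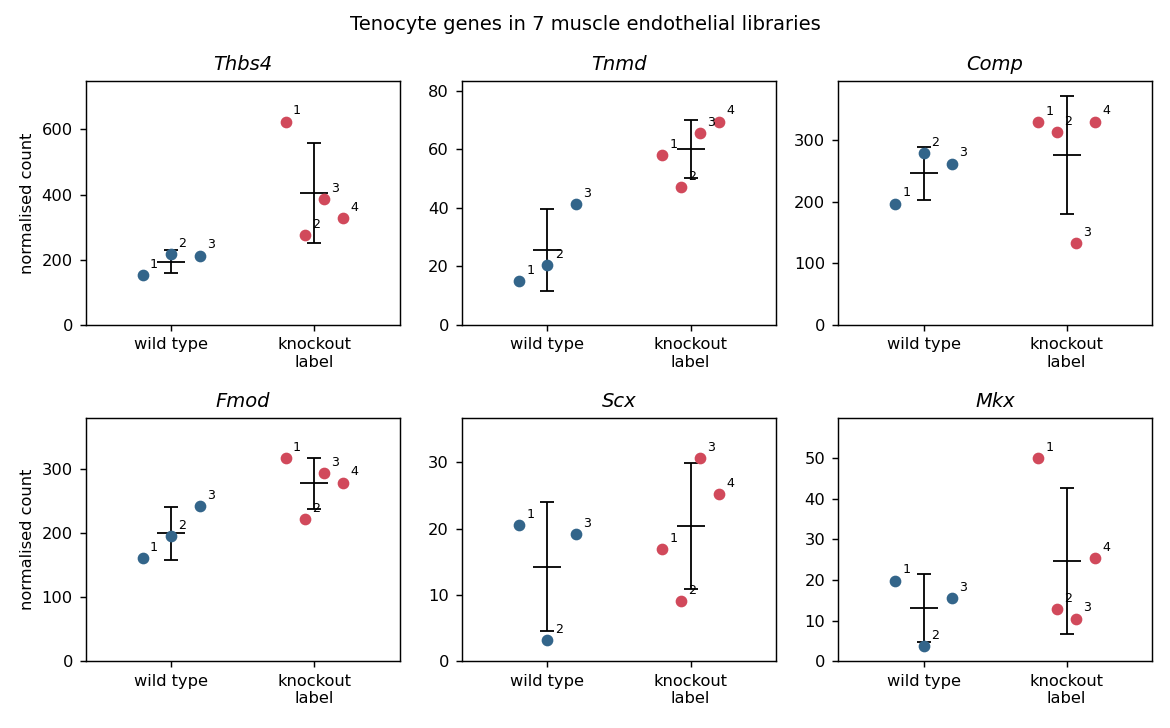
Normalised counts (vertical axis, from 0) of the 6 tenocyte genes in each library, with blue points for wild type, red points for the knockout label, digits for the library number and black bars for the mean ± SD. The groups do not overlap for Thbs4 and Tnmd, knockout-labelled library 1 is highest for Thbs4 at 623.93, and knockout-labelled library 3 is lowest for Comp at 133.11.

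Thbs4, the thrombospondin of tendon and muscle matrix, had normalised counts of 152, 217 and 212 in wild-type libraries 1 to 3 and 624, 276, 386 and 329 in knockout-labelled libraries 1 to 4. Every knockout-labelled value lay above every wild-type value, and library 1 of that group stood highest. Group means ± SD were 194 ± 36.3 (n = 3) and 404 ± 153 (n = 4), for which limma gave a log2 difference of 1.00 (SE 0.25, 95% interval 0.46 to 1.55, limma adjusted p = 0.0279). Without knockout-labelled library 1 the log2 fold change was 0.77 (limma adjusted p = 0.066), and without wild-type library 1 it was 0.84 (limma adjusted p = 0.147). When every library was brought to an equal total, the log2 difference was 0.78 (limma adjusted p = 0.0515).

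Comp, the thrombospondin of cartilage and tendon, had normalised counts of 197, 280 and 262 in wild type and 330, 314, 133 and 330 in knockout-labelled libraries 1 to 4. Knockout-labelled libraries 1, 2 and 4 lay above all wild-type values, and library 3 lay below all of them. Group means ± SD were 246 ± 43.5 (n = 3) and 277 ± 96.1 (n = 4), for which limma gave a log2 difference of 0.09 (SE 0.29, 95% interval -0.53 to 0.72, limma adjusted p = 0.847). Without knockout-labelled library 3 the difference was 0.41 (SE 0.20, limma adjusted p = 0.170). The estimate fell below 0 on equal totals, at -0.13, and when wild-type library 1, knockout-labelled library 1 or knockout-labelled library 4 was left out, at -0.06, -0.02 and -0.02.

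Fmod, the fibril-binding proteoglycan, had normalised counts of 161, 196 and 243 in wild type and 317, 223, 294 and 279 in knockout-labelled libraries 1 to 4. The groups overlapped only through wild-type library 3 and knockout-labelled library 2. Group means ± SD were 200.02 ± 41.2 (n = 3) and 278 ± 40.2 (n = 4), for which limma gave a log2 difference of 0.48 (SE 0.20, 95% interval 0.04 to 0.92). This did not pass after adjustment (limma unadjusted p = 0.0333, adjusted p = 0.123), and 32.3% of all tested genes had an unadjusted p under 0.05, with 16.4% of tested genes in the higher direction.

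Tnmd, the transmembrane marker of mature tenocytes, had normalised counts of 14.9, 20.4 and 41.4 in wild type and 58.2, 47.2, 65.6 and 69.5 in knockout-labelled libraries 1 to 4. The lowest knockout-labelled value, in library 2, was above the highest wild-type value, in library 3. Group means ± SD were 25.6 ± 14.0 (n = 3) and 60.1 ± 9.81 (n = 4), for which limma gave a log2 difference of 1.31 (SE 0.40, 95% interval 0.46 to 2.17). The limma adjusted p was 0.0488, just inside the threshold of 0.05. It was 0.0824 on equal totals and 0.026 to 0.195 when single libraries were left out, and the call held in 1 of those 7 fits, the one without wild-type library 3. Tnmd has 1353 exonic bases, and the 1332 tested protein-coding genes with 1000 to 2000 exonic bases had a median log2 fold change of 0.38, with 16.9% called higher. For Thbs4, with 3289 exonic bases, the same values were 0.20 and 8.63% over 4101 genes with 2000 to 4000 bases. The part of transcript length in these differences was not tested.

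The transcription factor genes were near the lower limit of measurement. Scx had normalised counts of 20.5, 3.16 and 19.2 in wild type and 16.9, 9.05, 30.6 and 25.2 in knockout-labelled libraries 1 to 4. The groups overlapped widely, and wild-type library 2 was lowest, at about 3.92 times the smallest repeated value of that library. The log2 fold change was 0.69 (SE 0.69, 95% interval -0.78 to 2.16, limma adjusted p = 0.505), and it was -0.09 without wild-type library 2, so its direction rests on that library. In the GRCm38 annotation Scx lies within the ribosome biogenesis gene Bop1 on the opposite strand and shares 0 exonic bases with it. The sources used here do not say whether counting kept the strands apart. Bop1 itself, looked up after the Scx values were seen, ranged over 173.4 to 289.4 for wild type against 155.8 to 199.3 for the knockout label.

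Mkx had normalised counts of 19.8, 3.83 and 15.6 in wild type and 49.9, 12.9, 10.53 and 25.3 in knockout-labelled libraries 1 to 4. Library 1 of the knockout-labelled group was highest and wild-type library 2 lowest, and the remaining values were mixed between groups. The log2 fold change was 0.86 (SE 0.68, 95% interval -0.61 to 2.33, limma adjusted p = 0.400), falling to 0.45 without knockout-labelled library 1 and to 0.21 without wild-type library 2. In the GRCm38 annotation Mkx shares 201 exonic bases on the same strand with AC148004.2, a transcript without values here, and how such reads were counted is not known. The intervals of Scx and Mkx include both 0 and the estimates of Thbs4 and Tnmd.

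**Figure D2:**
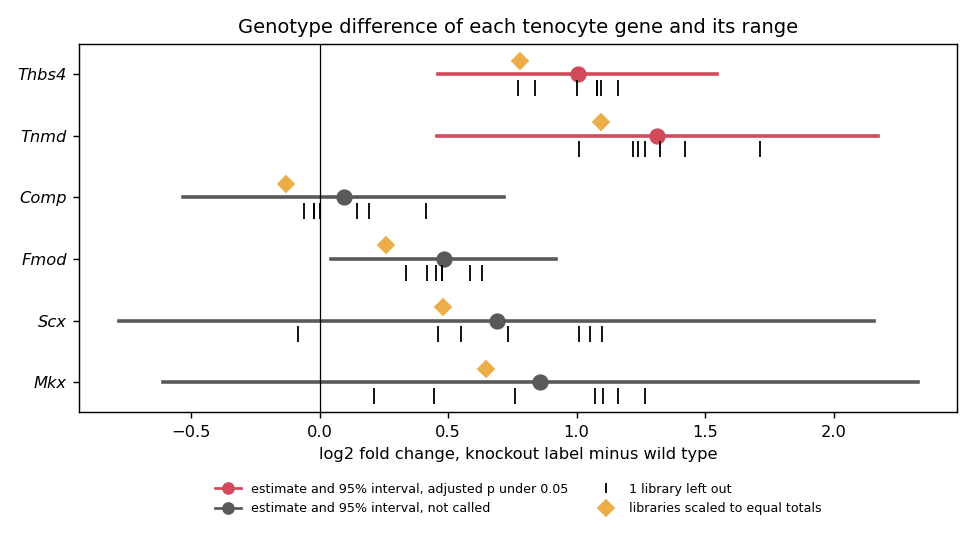
Log2 fold change (horizontal axis, knockout label minus wild type) of each tenocyte gene in limma, with points for the estimate, lines for its 95% interval, ticks for the fits that leave out 1 library and diamonds for libraries scaled to equal totals. The intervals of Thbs4 (0.46 to 1.55) and Tnmd (0.46 to 2.17) lie above 0, that of Fmod starts at 0.04, and those of Comp, Scx and Mkx include 0.

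Per kilobase of exon, the order of the wild-type means began with Comp (83.0 ± 14.7 normalised counts per kilobase, SD, n = 3), Fmod (60.5 ± 12.5) and Thbs4 (58.9 ± 11.03). Comp, at 66.4 to 94.2, did not overlap Thbs4, at 46.2 to 66.0, while the range of Fmod, 48.7 to 73.5, overlapped both. Tnmd followed at 18.9 ± 10.3, then Scx at 7.12 ± 4.82 and Mkx at 3.20 ± 2.03, which overlapped each other. With the knockout label the order of the means began with Thbs4 (123 ± 46.7, SD, n = 4), Comp (93.3 ± 32.4) and Fmod (84.2 ± 12.2), whose ranges overlapped, while Tnmd was at 44.4 ± 7.25, Scx at 10.2 ± 4.71 and Mkx at 6.02 ± 4.40. Endothelial markers stood far above all of them. Cdh5, the endothelial cadherin, was at 6746 ± 1480 and Pecam1, an endothelial adhesion molecule, at 4668 ± 699 per kilobase in wild type, and the lowest of 8 endothelial markers, Emcn, was at 467 ± 103.

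**Figure D3:**
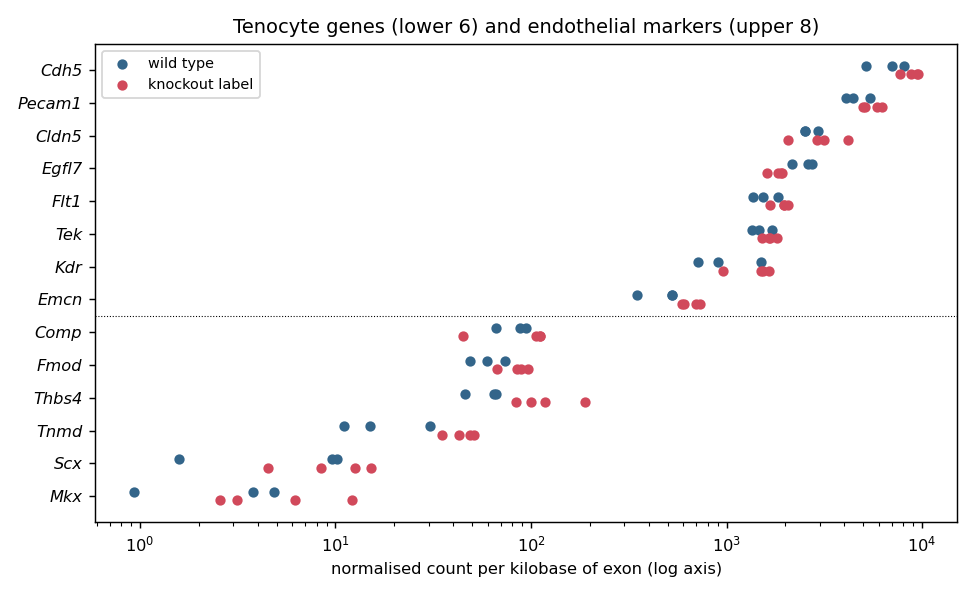
Normalised count per kilobase of exon (horizontal log axis) of 8 endothelial markers and the 6 tenocyte genes, with a point for each library, blue for wild type and red for the knockout label. Each endothelial marker lies above each tenocyte gene in every library, and Scx and Mkx are lowest.

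The balance between members also varied by library. The ratio of Thbs4 to Comp normalised counts was 0.772, 0.776 and 0.810 in wild type, a narrow range, and 1.89, 0.881, 2.90 and 0.995 in knockout-labelled libraries 1 to 4. The groups did not overlap. Libraries 2 and 4 of the knockout-labelled group lay nearest to wild type, library 1 had the highest Thbs4, and library 3 combined high Thbs4 with low Comp. The ratio of Thbs4 to Fmod, at 0.874 to 1.11 for wild type against 1.18 to 1.97, did not overlap either. That of Comp to Fmod did, at 1.08 to 1.43 against 0.453 to 1.41. The ratio of Tnmd to Fmod ran from 0.0928 to 0.170 for wild type against 0.183 to 0.249 for the knockout label, without overlap. The ratio of Scx to Mkx ran from 0.826 to 1.23 against 0.339 to 2.91. Against Col3a1, a fibril collagen of most connective tissue, Thbs4 did not separate the groups, with wild-type ratios of 0.0637 to 0.0932 against 0.0599 to 0.101. The ratio of Tnmd to Col3a1 was 0.00726 to 0.0124 and 0.00946 to 0.0142, also overlapping. These ratios were chosen after their values were seen and were not tested.

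By library, knockout-labelled library 4 exceeded every wild-type value for 6 of 6 members, library 1 for 5, library 3 for 4 and library 2 for 3. Among all tested genes the share above every wild-type value was 35.3% in library 4, 34.7% in library 1, 31.2% in library 3 and 34.5% in library 2. Library 1 held the highest value of the 7 for Thbs4, Fmod and Mkx. The summed normalised count of the 6 members ran from 565.3 to 793.7 for wild type against 882.2 to 1396 for the knockout label, while library totals were higher in each knockout-labelled library too. As parts per 1000000 of the library total the sums were 47.7 to 59.2 against 59.7 to 88.7, so that the groups nearly met. Thbs4 made up 26.8% to 30.1% and 31.0% to 44.7% of the members' sum.

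Other tendon genes were taken from lists of the same tissue. Of all tested genes 5.98% were called higher. Of 12 collagen genes of tendon fibrils, 5 rose and 7 did not pass, with a median log2 fold change of 0.69. Col3a1, at 2590.4 ± 872 (SD, n = 3) against 5088 ± 718 (SD, n = 4), rose by 1.03 on the log2 scale (SE 0.20, limma adjusted p = 0.0135). Col14a1, a fibril-associated collagen, rose by 0.98 (SE 0.19), and Col1a2, a chain of the main tendon collagen, by 0.68 (SE 0.14). Col5a1, a regulator of fibril diameter, rose by 0.73 (SE 0.18), and so did Col1a1, named after its value was seen, by 0.76 (SE 0.21). The count of collagens called dropped to 0 when wild-type library 1 was left out, and to 3 on equal totals or when knockout-labelled library 1 or 4 was left out.

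Of 12 small leucine-rich proteoglycans, the family of Fmod, 9 passed the filter, 2 rose and 7 did not pass the test, with a median of 0.67. Ogn (osteoglycin), at 194 ± 55.5 (SD, n = 3) against 414 ± 75.5 (SD, n = 4), rose by 1.11 on the log2 scale (SE 0.22, limma adjusted p = 0.0138), and Aspn (asporin) by 0.75 (SE 0.18). The count dropped to 0 when wild-type library 1 was left out, and to 1 on equal totals or when knockout-labelled library 1 was. Among the 5 thrombospondins, with a median of 0.20, Thbs4 was the 1 member called, and Comp, Thbs1 (-0.17, SE 0.12), Thbs2 (0.20, SE 0.18) and Thbs3 (0.33, SE 0.29) did not pass.

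Of 11 tested genes of a list of other tendon matrix genes, 0 passed limma's adjusted p, with 4 at an unadjusted p under 0.05 and a median of 0.40. Its most abundant members, Eln (elastin) and Fbn1 (fibrillin, a microfibril protein), had log2 fold changes of 0.07 (SE 0.16) and -0.20 (SE 0.15). Of 10 tested genes of transforming growth factor beta and growth differentiation factor signalling, which induces Scx in the embryo, 1 rose, with a list median of 0.15, the signal transducer Smad2 (468 ± 52.5 to 746 ± 36.8, log2 fold change 0.68, SE 0.14). The Smad2 call ended on equal totals and without wild-type library 1. Of 7 other tested transcription factor genes with a role in tendon, 1 rose and 6 did not pass, with a median of 0.06. That call also ended on equal totals and without wild-type library 1.

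**Figure D4:**
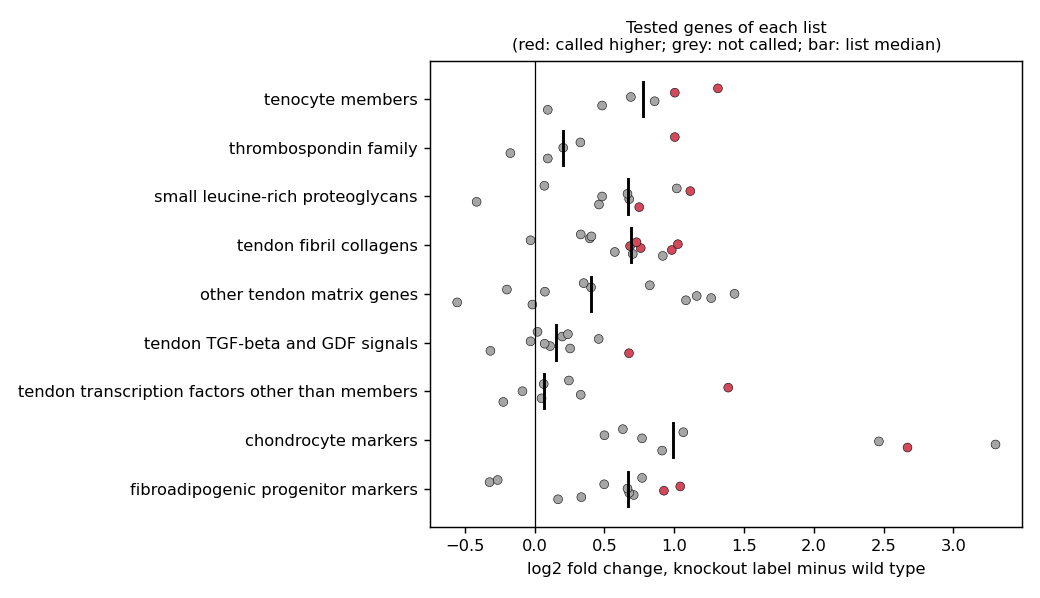
Log2 fold change (horizontal axis, knockout label minus wild type) of each tested gene in the tendon lists and in the lists of chondrocyte and fibroadipogenic progenitor markers, with red points for genes called higher, grey points for genes not called and bars for the list median. The tenocyte genes have a median of 0.77, the fibril collagens 0.69, the proteoglycans 0.67, the fibroadipogenic progenitor markers 0.67, the chondrocyte markers 0.99, the other matrix genes 0.40, the thrombospondins 0.20, the signalling genes 0.15 and the other transcription factors 0.06.

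Comp, Fmod and Scx are also expressed by chondrocytes, and cartilage transcripts were present in some libraries. Of 12 chondrocyte markers 8 passed the filter, 1 rose and 7 did not pass, with a median log2 fold change of 0.99. Col2a1, the fibril collagen of cartilage, had normalised counts of 17.0, 349 and 2.06 in wild type and 2009.7, 1.02, 537 and 2238 in knockout-labelled libraries 1 to 4. It was thus highest in libraries 1 and 4 of the knockout-labelled group, close to the floor in library 2, and present in wild-type library 2. Acan, the large cartilage proteoglycan, followed the same libraries, with 179 and 221 in knockout-labelled libraries 1 and 4 against 43.1 to 88.8 in the other 5. The 1 gene called was Cnmd (chondromodulin), the cartilage relative of Tnmd, at 4.37 ± 4.45 (SD, n = 3) against 30.4 ± 21.6 (SD, n = 4), which rose by 2.67 on the log2 scale (SE 0.79, limma adjusted p = 0.0438). Its wild-type values, 3.24, 9.27 and 0.588, were all under the minimum mean of 10. Cnmd thus passed the filter only through the knockout-labelled libraries, and its call is given as a description only.

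The summed chondrocyte list ran from 194.3 to 701 for wild type against 196.1 to 3047 for the knockout label. The cartilage genes other than Cnmd were picked after their values were seen. In knockout-labelled library 2, where Col2a1 was at 1.02, Thbs4 at 276, Comp at 314 and Tnmd at 47.2 were above their highest wild-type value, while Fmod at 223, Scx at 9.05 and Mkx at 12.9 were not. That library was also the lowest of its group for Thbs4, Tnmd, Fmod and Scx. In wild-type library 2, where Col2a1 was at 349, Scx and Mkx were at their lowest. In knockout-labelled libraries 1 and 4, where Col2a1 was highest, Comp (329.77 and 330.47) and Mkx (49.9 and 25.3) held their 2 highest values. The cases thus go both ways, and the part of cartilage RNA in the member differences was not tested. The Cnmd call ended on equal totals and in 5 of the 7 fits that left out a library.

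**Figure D5:**
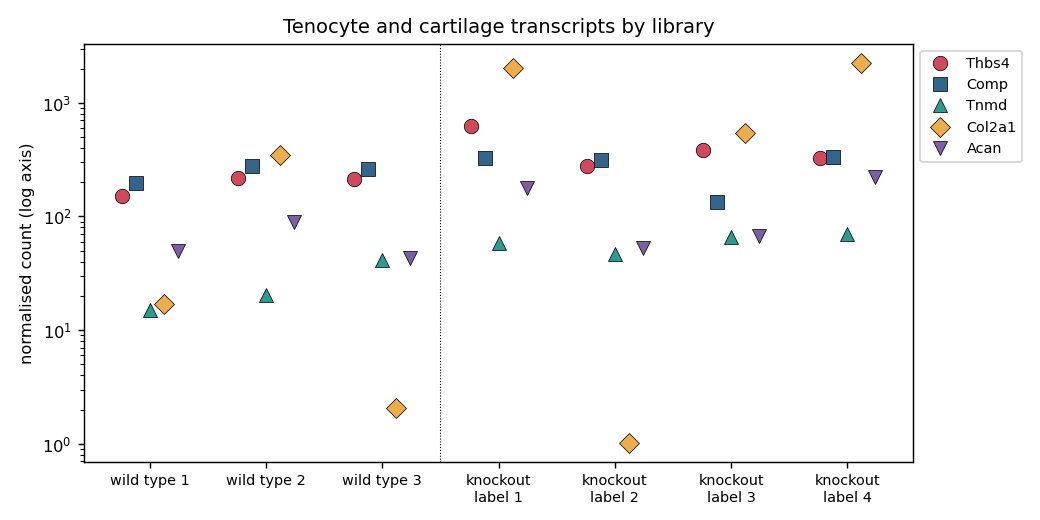
Normalised counts (vertical log axis) of the tenocyte genes Thbs4, Comp and Tnmd and the cartilage genes Col2a1 and Acan in each library (horizontal axis). Col2a1 ranges from 1.02 to 2238 and is highest in knockout-labelled libraries 1 and 4, while Thbs4 ranges from 152 to 624 and Comp from 133 to 330.

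Markers of other cells of muscle were called in part, where 5.98% of all tested genes were called higher. Of 11 tested markers of fibroadipogenic progenitors, the interstitial fibroblasts of muscle, 2 rose, Ly6a (log2 fold change 1.04, SE 0.15) and Gsn (0.93, SE 0.14), and 9 did not pass, among them the defining Pdgfra (-0.32, SE 0.32). Ly6a is also an endothelial gene. The summed level of this list ran from 7885 to 11640 for wild type against 13860 to 17000.0 for the knockout label. Col15a1, Gsn and Ly6a, at means of 5685, 2918 and 2758 over all libraries, made up most of it, and Pdgfra was at 84.1. Library totals were higher in each knockout-labelled library too. Of 8 satellite cell markers 3 rose, Des, Cdh15 and Pax7 (0.91, SE 0.21). All 8 were higher at an unadjusted limma p under 0.05, as were 16.4% of all tested genes. Their median log2 fold change was 0.75, against 0.77 for the 6 tenocyte genes, and their sums were 3404 to 4098 and 5181 to 5672. Vcam1 and Des, at means of 1687 and 1651 over all libraries, made up most of these sums. Of 8 Schwann and perineurial markers 3 rose, among them the myelin gene Mbp (0.93, SE 0.16), and 5 did not pass, among them Itgb4 (-0.29, SE 0.20). Of 8 pericyte and smooth muscle markers 3 rose, the contractile genes Acta2, Myh11 and Tagln (0.68 to 0.97), and 5 did not pass. The 5 were Cspg4 (0.39, SE 0.13, limma adjusted p = 0.0621), Notch3 (0.26, SE 0.14), Pdgfrb (0.06, SE 0.16), Rgs5 (-0.02, SE 0.23) and Kcnj8 (-0.03, SE 0.36). The sums were 17480 to 21740 and 25840 to 32810 for Schwann and perineurial markers, and 40290 to 53070 and 65430 to 74310 for pericyte and smooth muscle markers. Median log2 fold changes were 0.59 for Schwann and perineurial markers and 0.33 for pericyte and smooth muscle markers.

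Of 10 markers of mature muscle fibres 0 passed limma's adjusted p, with 0 at an unadjusted p under 0.05, Myh4 at 0.60 (SE 0.35) and Acta1 at 0.40 (SE 0.31), and sums of 263.8 to 665.8 and 435.3 to 722.3. Of 6 tested macrophage markers 0 passed. The 2 at an unadjusted p under 0.05 had opposite directions, Cd68 at -1.19 (SE 0.38) and C1qb at 1.92 (SE 0.81). C1qb was at 1.97, 4.87 and 1.83 in wild type and passed the filter only through the knockout-labelled libraries. Lyve1, not among the 2, was at 0.16 (SE 0.41), and the list had sums of 215.4 to 281.1 and 153.2 to 239.8. Of 8 endothelial markers Emcn rose (0.51, SE 0.16), Egfl7 fell by 0.47 (SE 0.13) and 6 did not pass, with sums of 93880 to 122700.0 and 126600.0 to 138800.0. The Emcn call ended on equal totals (0.29, limma adjusted p = 0.139), and the calls of Emcn and Egfl7 each ended in 6 of the 7 fits that left out a library. Both held when wild-type library 3 was left out. Without wild-type library 1 the genes called higher numbered 0 for satellite cells, 1 for Schwann cells, 1 for smooth muscle and 2 for fibroadipogenic progenitors, and on equal totals 1, 3, 1 and 2. None of the markers in these lists was at 0 in all 7 libraries. The part of these cell populations in the tenocyte gene differences was not tested.

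The genes whose pattern over the 7 libraries was most like that of a member, among 11860 genes with a mean of at least 50, were mostly not tendon genes. For Thbs4 they were Yipf3 (Pearson r = 0.992 of log2 values), Rest and Gm24105, for Tnmd Cox5a (r = 0.997), Slc25a51 and Copb2, and for Comp Leo1 (r = 0.989), Zfp628 and Gm14325. For Fmod they were Ube2d3 (r = 0.987), Gpx8 and the collagen gene Col6a1 (r = 0.981), which forms microfibrils in tendon and muscle. For Scx they were Mphosph6, Cdh1 and Tmem41b (r = 0.977 to 0.964), and for Mkx Il15ra, Lars and Ankrd54 (r = 0.980 to 0.940). These are descriptions over 7 libraries that include the genotype difference, drawn from many candidates.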

How the data were processed

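Each deposited table holds 1 library, with expression signal that the authors had scaled as normalised counts. Tools listed in the submitters' processing notes are kallisto, featureCounts, DESeq and DESeq2, with build GRCm39 and no role or version. Per the labels' protocols, 10 ng of RNA entered a Takara Clontech PicoMammalian v2 kit. Of low values, 24.4% to 48.6% lay near whole multiples of 1 step (tolerance 0.02 steps, over 10 steps, the step being the smallest value repeated 20 times or more). Whole reads were thus not recovered, and count tests and counting intervals were not used.

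The log2 of each normalised count with 1 added, a scale that understates changes of low genes, was fitted in limma 3.58.1 (R 4.3.3, with a trend) over 16931 genes with a mean of at least 10. Adjustment was by Benjamini-Hochberg over all of them, with a threshold of 0.05. Differences are knockout label minus wild type. The fit was also run on simulated counts with the same dispersion for every gene and no outlying library. That run does not test the calls in these data. Exon lengths (for 97.6% of tested genes) and overlaps came from a GRCm38 annotation matched by symbol. The text names the 6 members, Slc2a1, for each list up to 4 called genes by smallest p (with none called, the 2 of highest mean) and 3 genes most like each member. Other genes were named after their values were seen. Members and lists were chosen with earlier results of these data known. Library groups follow the titles. Alternatives were other pseudocounts, filters, scalings and limma settings, a replicate block and leaving out each library. A few genes that the rule would name are not reported here.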

Additional observations from a re-analysis of the deposited data

Results flagged for a closer look

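In the knockout-labelled group of 4, a library was set apart where its gap to the nearest value, divided by the range, was above Dixon's 95% critical value. Of 36 genes looked at 3 had such a library, and chance alone sets apart about 1 in 20 groups. Comp was lowest in knockout-labelled library 3, at 133.1 normalised counts (gap over range 0.916), where the other libraries of the group held 314 to 330. The proteoglycan genes Ogn and Aspn were highest in the same library, at 526.7 (0.875) and 580.9 (0.889). Without this library Comp had a log2 fold change of 0.41 in place of 0.09 and still did not pass (limma adjusted p = 0.170).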

How the results depend on the processing

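The call of 1949 genes became 1102 with quantile normalization, 17 in limma without a trend, 119 with a replicate block, 3842 at an adjusted p of 0.10 and 43 to 1975 when 1 library was left out. Without a trend 0 of the 17 were higher. Of the 2 tenocyte genes called, 1 was with no filter, with a mean of at least 50 (where Tnmd was not tested), with quantile normalization and with array weights, 0 on equal totals, without a trend and with a replicate block, and 0 to 2 when 1 library was left out. Of 37 alternative values of Thbs4 and Tnmd, 17 lost the call, and 7 values of the members not called changed sign. Thbs4 lost its call at 0.90 with quantile normalization, 0.78 on equal totals, 1.00 without a trend and 1.08 with a replicate block (adjusted p = 0.0816), and ranged from 0.77 to 1.16 over left-out libraries. Tnmd lost it at 1.31 with no filter, 1.09 on equal totals, 1.31 without a trend, 1.22 with array weights and 1.24 with a replicate block (adjusted p = 0.147), and ranged from 1.01 to 1.71. Comp changed sign at -0.01 with quantile normalization, -0.13 on equal totals and -0.022 with a replicate block, and ranged from -0.059 to 0.413. Scx ranged from -0.086 to 1.10, Slc2a1 from -0.243 to 0.023, Eln from -0.02 to 0.21 and Lyve1 from -0.042 to 0.541 over left-out libraries. Eln was at -0.093 with quantile normalization and -0.15 on equal totals, and Lyve1 at -0.06 on equal totals. Slc2a1 was at -0.32 on equal totals. The causes of these changes were not tested. Libraries of the same number showed no sign of deviating together (correlations -0.08, -0.05 and -0.12 for numbers 1 to 3). So few libraries cannot exclude that the numbers pair them. Quantile normalization raised Scx to 1.59 and Mkx to 1.71, both still not called.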
